A study of Homo sapiens with 33 samples.

Results

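The replication-dependent histone genes are the many small genes that supply the bulk of the histone proteins. They were chosen by name, as the protein-coding genes whose current symbols are H1-1 to H1-5 or begin with H2AC, H2BC, H3C or H4C and a number. No measured value entered this rule, but the genes were chosen with earlier results of these data known. They are 68 of the 85160 genes in the deposited table, with 5 in class H1, 17 in H2A, 18 in H2B, 13 in H3 and 15 in H4. The cells were NB4, an established line of acute promyelocytic leukaemia, grown with 1 µM ATRA (all-trans retinoic acid, which makes these cells mature), with the solvent DMSO, or untreated. ATRA and DMSO cells were collected at 4, 12, 24, 72 and 120 h and untreated cells at 0 h, and fresh drug in medium was added on day 3, per the labels' protocols. Each of the 11 groups held 3 biological replicates, numbered 2, 4 and 5, so 33 libraries were compared, and all of them are of 1 cell line.

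Cells need new histones mainly in S phase, when DNA is copied, and the genes that supply them lie in clusters, have no introns and are switched on together by the coactivator NPAT at the start of S phase. Their messages end in a stem-loop instead of a poly(A) tail. The stem-loop binding protein SLBP holds that end through cleavage, translation and decay, and the message is degraded when DNA synthesis stops. A few of the genes can also give polyadenylated messages, which are known from differentiated cells. The libraries were made from total RNA, so messages without a poly(A) tail were captured.

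The stem-loop is the end of the message that SLBP binds, and it was searched by a pattern of its known histone form. The pattern spans 16 bases, with 6 in each arm of the stem and 4 in the loop. It restricted the base at nearly every position to the histone form, and the arms had to pair fully. A match was found in the GENCODE 29 transcripts (GRCh38) of 30 of the 68 genes. Another 34 have no annotated 3' untranslated region to search, and 4 have one without the stem-loop. Of 19854 other protein-coding genes 8 matched the pattern (0.0403%). The pattern itself limits how far the forms can differ, and other stem-loops of this size were not counted. The most frequent form stood in 17 genes of the H2A, H2B and H3 classes, and every H4 gene in which one was found carried a form that ends in GGGCC. The 4 forms present in 3 or more genes are shown by 1 gene each, with the stem-loop in capitals and 5 bases on either side, at chr1:149886183-149886208 (minus strand), chr6:26158582-26158607 (plus), chr6:26204996-26205021 (plus) and chr1:149860764-149860789 (minus).
H2BC21 (form in 17 genes): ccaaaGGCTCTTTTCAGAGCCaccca
H2BC5 (form in 4 genes): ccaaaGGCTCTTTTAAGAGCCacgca
H4C5 (form in 5 genes): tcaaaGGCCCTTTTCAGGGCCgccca
H4C15 (form in 3 genes): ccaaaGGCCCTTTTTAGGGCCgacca

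The promoters differ by class in the motifs they hold. RefSeq (GRCh38.p14) windows of 250 bases before to 50 after the start were available for 63 of the genes, among 27305 windows in all. Only the 250 bases before the start were searched, on both strands. TATAAA, the TATA box, stood in 66.7% of the histone windows and 11.1% of all windows. CCAAT stood in 84.1% against 33.0%, in every H1, H2A, H2B and H3 window but in only 23.1% of H4 windows. ATTTGCAT, the octamer known as the OCT1 site of H2B promoters, stood in 77.8% of H2B and 68.8% of H2A windows, in none of H1 or H4, and in 1.66% of all windows. GGTCCG, part of the H4 promoter element that the factor HINFP binds, was searched after the windows had been read and stood in 92.3% of H4 windows and 9.33% of all windows. H2A and H2B genes are often divergent pairs whose windows overlap (the starts of H2BC21 and H2AC20 are 236 bases apart), so 1 motif can count for both. The 120 bases before the start are shown for genes that the results below turn on, with these 4 motifs in capitals in either orientation. In the H2BC21 window the reversed GGTCCG overlaps CCAAT. The windows lie at chr6:27867589-27867708, chr1:149886683-149886802, chr6:26032100-26032219, chr6:26189113-26189232 and chr12:14771132-14771251, all on the minus strand.
H1-5: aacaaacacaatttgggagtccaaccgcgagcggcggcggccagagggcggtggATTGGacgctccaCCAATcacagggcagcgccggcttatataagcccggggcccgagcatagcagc
H2BC21: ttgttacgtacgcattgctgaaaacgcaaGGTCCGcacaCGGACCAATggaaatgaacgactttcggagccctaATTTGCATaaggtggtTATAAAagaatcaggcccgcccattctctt
H3C2: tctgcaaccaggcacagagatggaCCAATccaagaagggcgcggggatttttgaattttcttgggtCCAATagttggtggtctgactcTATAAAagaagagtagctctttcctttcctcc
H4C4: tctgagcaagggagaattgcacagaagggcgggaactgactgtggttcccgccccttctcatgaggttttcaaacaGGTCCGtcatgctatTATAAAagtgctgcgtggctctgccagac
H4C16: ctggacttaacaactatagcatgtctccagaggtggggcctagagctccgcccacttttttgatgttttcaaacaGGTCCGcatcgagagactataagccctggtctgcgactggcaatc

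The genes sit on 6p22 in groups of 2, 31, 5 and 16, on 1q21 (11 genes) and on 1q42 (2 genes), and H4C16 lies alone on 12p12. Of the 68, 62 had enough counts to be tested among 22971 genes, and H2AC1, H2AC25, H2BC1, H2BC26, H3C6 and H4C7, with 3 to 64 counts over all libraries, were not. Per kilobase of counted exon the highest mean level over the 33 libraries was 1109 CPM (fragment counts scaled to a common library size) per kilobase in H3C2, followed by 978 in H1-5 and 715 in H1-4, and the lowest was 0.027 in H1-1. The copies are near-identical and reads that mapped to several places were not counted, so single genes are uncertain and results are given by class and cluster as well. Fragments that overlapped several gene models counted for each of them, and 53 of the 68 share exon sequence with another model, 25 of them with another of the 68. The H2BC21 model shares 50.3% of its exon length, with 5 other genes of 1q21 among its partners. H1-5 and H2AC11 share none. H3C2 and H4C4 share all of it with identifiers that have no GENCODE 29 entry. The model of H4C16 holds 28302 exon bases, beside a GENCODE span of 3133 bases for the gene. That of H1-1 holds 22800 exon bases, beside a span of 648, so the fragments counted for either may lie outside the gene. Several other named genes also have models longer than their span. Examples are H2BC15 (99472 exon bases, span 28039), H2BC4 (32575, span 9054) and H1-2 (10443, span 642).

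Library totals ran from 18341456 to 33490654 fragments, and within a group the p-values measure the spread between 3 replicates. The libraries of 0, 4 and 12 h were sequenced in lane 4, and from 24 h on replicate 2 was in lane 2 and replicates 4 and 5 in lane 3. The DMSO library of replicate 5 at 4 h stood apart in these genes, with 18061 summed CPM beside 10993 and 11838 in the other two. Through the shared estimate of the spread, that library also enters the p-values of the other times. Promyelocyte markers (MPO, AZU1, PRTN3, CTSG and CD33) summed to between 452 and 666 CPM in ATRA cells at 120 h, against 9326 to 11452 CPM in DMSO cells. The 9 markers of lymphocytes, erythroid cells, epithelium and fibroblasts were low in sum, but higher in ATRA cells at the late times. They summed to between 38.3 and 40.9 CPM in ATRA cells, against 13.6 to 14 CPM in DMSO cells, at 72 h, and to between 32.1 and 34.4 CPM in ATRA cells, against 14 to 15.6 CPM in DMSO cells, at 120 h. Most of this was CD79A, a B cell receptor component, at 24.3 to 26.1 CPM in ATRA cells at 120 h, against 1.94 to 3.02 CPM in DMSO cells. The B cell marker MS4A1 was at 0 in every ATRA library at both times, and COL1A2 in every library of both arms. The part of these markers in the histone levels was not tested.

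Histone messages were at their lowest in ATRA cells at 120 h. Both arms were low at 72 h, after which the level went down further in ATRA cells and came back near the untreated level in DMSO cells. Summed over the 68 genes and in the order of replicates 2, 4 and 5, the level at 120 h was 5856, 5427 and 4259 CPM in ATRA cells, against 15173, 14851 and 13648 CPM in DMSO cells. The groups did not overlap, and the ATRA mean was 0.356 of the DMSO mean (a log2 ratio of -1.49). At 72 h the sums were 9311, 8881 and 9018 CPM in ATRA cells, against 8853, 10429 and 8599 CPM in DMSO cells. They overlapped, with a ratio of 0.976. Set against the untreated mean of 16363 ± 606 CPM (SD, n = 3), the 72 h sums were 55.4% in ATRA cells and 56.8% in DMSO cells, and the 120 h sums 31.7% in ATRA cells and 89.0% in DMSO cells. In each of the 5 classes the mean sum was lower at 120 h than at 72 h in ATRA cells, and higher at 120 h than at 72 h in DMSO cells. In bulk RNA, fewer cells with these messages and fewer messages per cell cannot be told apart.

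**Figure D1:**
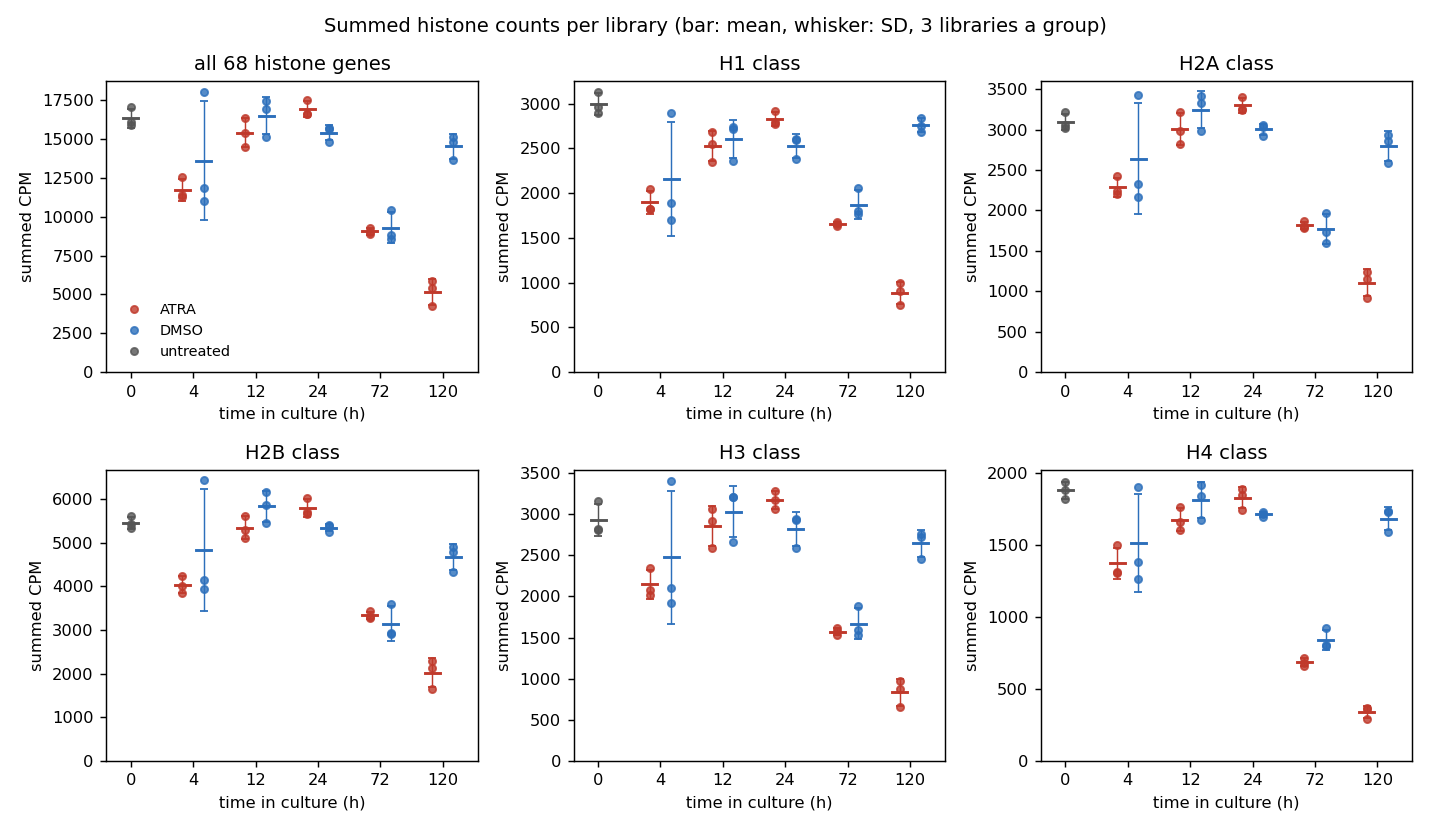
Summed CPM of the histone genes (y axis) at each time in hours (x axis), for all 68 genes and for each class; points are libraries, bars means and whiskers SD of 3 libraries. At 120 h the ATRA libraries lie below every DMSO library in each panel, and at 4 h DMSO replicate 5 lies far above the other DMSO libraries.

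At 120 h the H4 class was lowest relative to DMSO cells. Its genes summed to 368, 361 and 290.2 CPM in ATRA cells, against 1724, 1731 and 1588 CPM in DMSO cells, a ratio of means of 0.202. H3 genes averaged 833 ± 163 CPM in ATRA cells and 2645 ± 166 CPM in DMSO cells, and H1 genes 881 ± 125 CPM in ATRA cells and 2760 ± 76 CPM in DMSO cells (SD, n = 3 each), with ratios of 0.315 and 0.319. The ratios were 0.395 for H2A and 0.432 for H2B. No class overlapped between the groups. Fragments in exons shared among the 68 can enter these sums more than once. Over the 43 genes that share none with another of the 68, the log2 ratio of the summed levels was -1.77, beside -1.49 over all 68.

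Before 72 h the summed levels were closer. At 24 h they were 16648, 17529 and 16615 CPM in ATRA cells, against 14855, 15702 and 15680 CPM in DMSO cells, a ratio of 1.10 with no overlap. At 12 h they were 14482, 16349 and 15406 CPM in ATRA cells, against 15150, 16980 and 17462 CPM in DMSO cells, which overlapped. At 4 h the sums were 11402, 11267 and 12560 CPM in ATRA cells, against 10993, 11838 and 18061 CPM in DMSO cells. The 4 h groups overlapped too, and both arms except DMSO replicate 5 lay below the untreated libraries, at 16089, 15943 and 17058 CPM.

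The comparison of ATRA with DMSO at 120 h asks how the histone genes stood when the cells had been exposed longest. They fell almost as a whole. By the quasi-likelihood test of edgeR, with p-values adjusted by the Benjamini-Hochberg method over all tested genes, 59 of the 62 were lower in ATRA cells at an adjusted p under 0.05 and none was higher (61 were lower at an unadjusted p under 0.05, and 58 lower and none higher by DESeq2). Of all tested genes 70.6% were called and 35.6% were called lower. The median log2 fold change was -1.50 over the 62 genes, beside -0.03 over all genes. Within lane 3 alone, which leaves out replicate 2, 59 were again called, all lower. ATRA and DMSO libraries did not overlap in 60 of the 62, beside 71.7% of all genes. H1-1, H2AC18 and H2AC19 did not pass the test. The class medians were -1.50 for H1, -1.32 for H2A, -1.40 for H2B, -1.77 for H3 and -2.07 for H4.

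The linker histone genes of class H1, whose proteins bind DNA between nucleosomes, fell in 4 of 5 cases at 120 h. H1-5 had 195.6, 176.9 and 141.5 CPM in ATRA cells, against 965.5, 957.0 and 902.7 CPM in DMSO cells. The groups were far apart, and the log2 fold change was -2.46 ± 0.12 (SE, adjusted p = 1.1e-20). H1-2 (-1.70 ± 0.11), H1-3 (-1.50 ± 0.10) and H1-4 (-1.0 ± 0.12) fell less. H1-1 was near the limit of detection, with 27 counts over the ATRA libraries and 46 over the DMSO libraries.

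Core histone genes of the H2A and H2B classes, whose proteins pair as dimers in the nucleosome, had smaller median falls than the H3 and H4 classes. H2AC11 had 115.9, 109.0 and 84.5 CPM in ATRA cells, against 391.5, 388.3 and 350.2 CPM in DMSO cells, a log2 fold change of -1.87 ± 0.12 (adjusted p = 9.5e-17). H2BC21, summed with its overlapping neighbours as described, had 407.5, 374.4 and 307.2 CPM in ATRA cells, against 837.6, 809.3 and 717.3 CPM in DMSO cells. Neither gene's groups overlapped, and the log2 fold change of H2BC21 was -1.12 ± 0.12 (adjusted p = 5.6e-11). Of the other genes named for high counts, H2AC8 fell by 1.67, H2AC21 by 0.80, H2BC18 by 1.39 and H2BC15 by 1.13 on the log2 scale. In all, 13 of 15 tested H2A genes and 16 of 16 H2B genes were called lower.

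All 12 tested H3 genes and all 14 tested H4 genes, whose proteins form the central tetramer of the nucleosome, were called lower at 120 h. H3C2 had 118.5, 100.4 and 75.6 CPM in ATRA cells, against 557.3, 533.2 and 503.9 CPM in DMSO cells (log2 fold change -2.44 ± 0.14, adjusted p = 6.5e-19). H4C4 fell most of all tested members, with 23.1, 24.8 and 19.2 CPM in ATRA cells, against 232.1, 239.2 and 217.4 CPM in DMSO cells (-3.36 ± 0.13, adjusted p = 1.3e-24). No library of 1 group reached the other for either gene. H4C6 (-2.88 ± 0.11), H4C3 (-2.82 ± 0.09) and H4C13 (-2.60 ± 0.10) came next in class H4. H4C16 fell least of all 62, with 12.7, 12.5 and 11.9 CPM in ATRA cells, against 15.0, 15.2 and 13.9 CPM in DMSO cells (-0.25 ± 0.11, adjusted p = 0.044).

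The 6 genes known as sources of polyadenylated messages, H1-2, H2AC6, H2BC4, H2BC5, H2BC12 and H2BC21, were all lower at 120 h, with a median log2 fold change of -1.24 and a range of -2.02 (H2BC5) to -0.88 (H2AC6). The counts do not separate the 2 kinds of message.

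**Figure D2:**
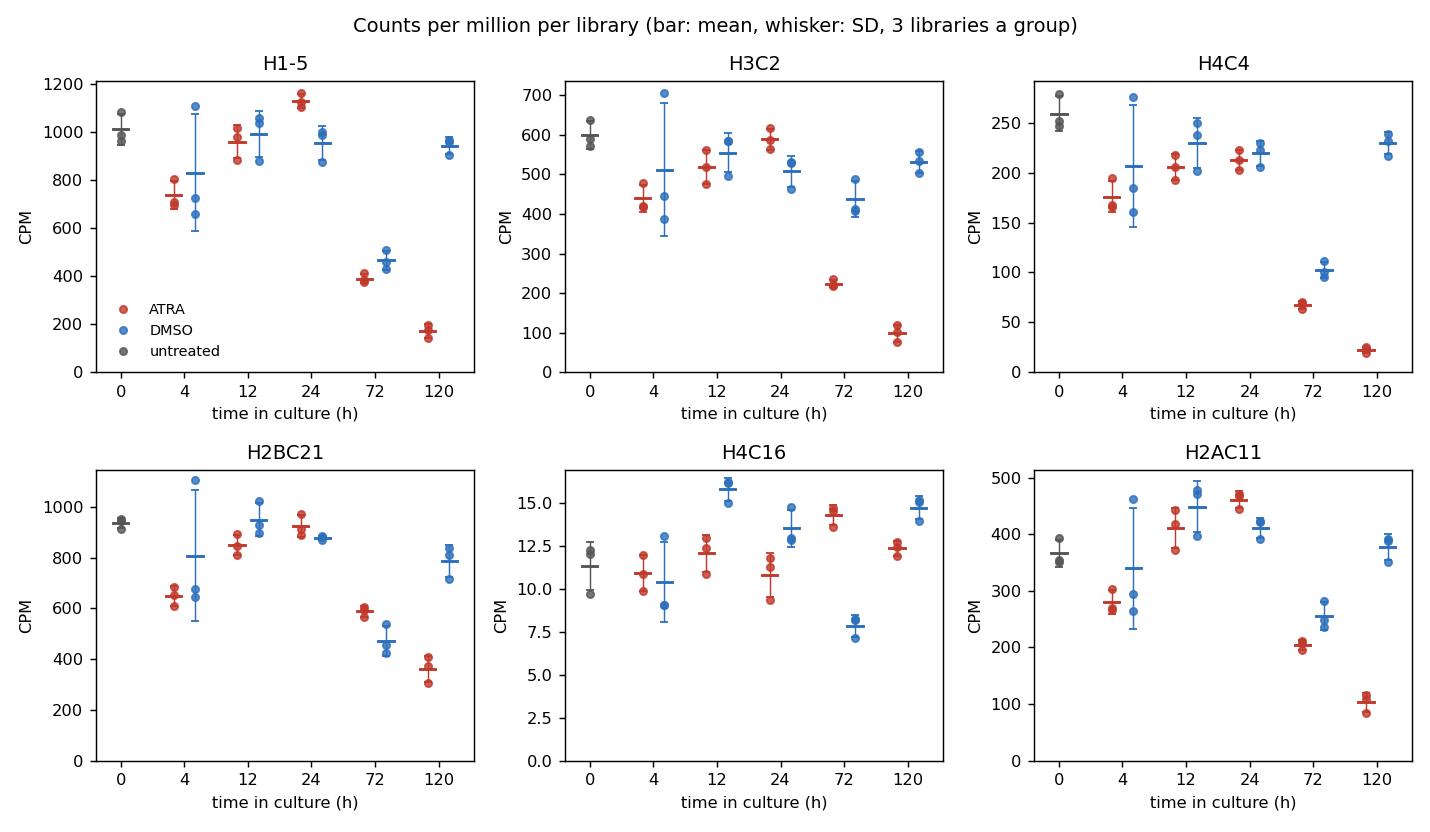
CPM (y axis) by time in hours (x axis) for 6 histone genes; points are libraries, bars means and whiskers SD of 3 libraries. H1-5, H3C2, H4C4 and H2AC11 are lowest in ATRA cells at 120 h, and H4C16 stays between 7.12 and 16.2 CPM throughout.

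At 72 h the same comparison split the genes. Of the 62, 26 were higher and 15 lower in ATRA cells, where 64.7% of all tested genes were called, 32.1% higher and 32.6% lower. The median log2 fold change was 0.14, beside -0.02 over all genes. H3C2 had 234.5, 221.1 and 216.6 CPM in ATRA cells, against 412.5, 489.6 and 408.6 CPM in DMSO cells (-0.96 ± 0.13, adjusted p = 3.3e-08). H4C6 fell most, by 1.21 ± 0.10 on the log2 scale, and H4C3 fell by 0.98 and H4C4 by 0.60. H2BC21 was higher in ATRA cells, with 605.1, 565.4 and 594.6 CPM, against 455.4, 539.1 and 425.6 CPM in DMSO cells (0.31 ± 0.12, adjusted p = 0.018). The groups did not overlap in any of these 5 genes. H4C15 had the largest difference in favour of ATRA cells (log2 fold change 1.19 ± 0.35). It was at 2.14, 1.95 and 1.64 CPM in ATRA cells, against 0.593, 1.3 and 0.590 CPM in DMSO cells. Within the ATRA arm its mean was 2.41 CPM at 24 h and 1.91 CPM at 72 h, so it did not rise there. H4C16, the solitary gene on 12p12, had 14.5, 13.6 and 14.7 CPM in ATRA cells, against 7.12, 8.18 and 8.27 CPM in DMSO cells (0.86 ± 0.12, adjusted p = 3.5e-08). Among H1 genes, H1-3 was higher (0.21 ± 0.09), H1-2 (-0.35 ± 0.11) and H1-1 (-1.01 ± 0.36) were lower, and H1-5 was at -0.26 ± 0.12 (adjusted p = 0.051).

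By position, the 31-gene cluster of 6p22 (chr6:26017085-26285638) held 7 higher and 11 lower of 29 tested genes, with a median log2 fold change of -0.10. The 16-gene cluster further along (chr6:27807444-27893843) held 9 higher and 2 lower of 16, with a median of 0.29. On 1q21 (chr1:149782689-149887916) 7 of 11 were higher and none lower, with a median of 0.31. No test was made of the difference between clusters, whose genes share exon sequence. Both directions occurred in every class, with 1 higher and 2 lower in H1, 7 and 3 in H2A, 9 and 4 in H2B, 4 and 2 in H3, and 5 and 4 in H4. At 120 h the cluster medians were -1.69, -1.41 and -1.06 in the same order. Of the 26 genes called higher at 72 h, 24 share exon sequence with another gene model, and of the 15 called lower, 11 do.

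The split at 72 h depends on scaling and on the control. With library totals in place of TMM factors, which moves the median of all genes by -0.14 at that time, 15 histone genes were higher and 22 lower. Without replicate 2, which leaves the 2 replicates of lane 3, they were 13 and 17. With the mean of DMSO cells at 24 h and 120 h in place of those at 72 h, none was higher and 50 were lower, and H2BC21 was at -0.50. The share of all genes called under these settings is not given here, so the counts cannot be read as particular to histone genes.

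**Figure D3:**
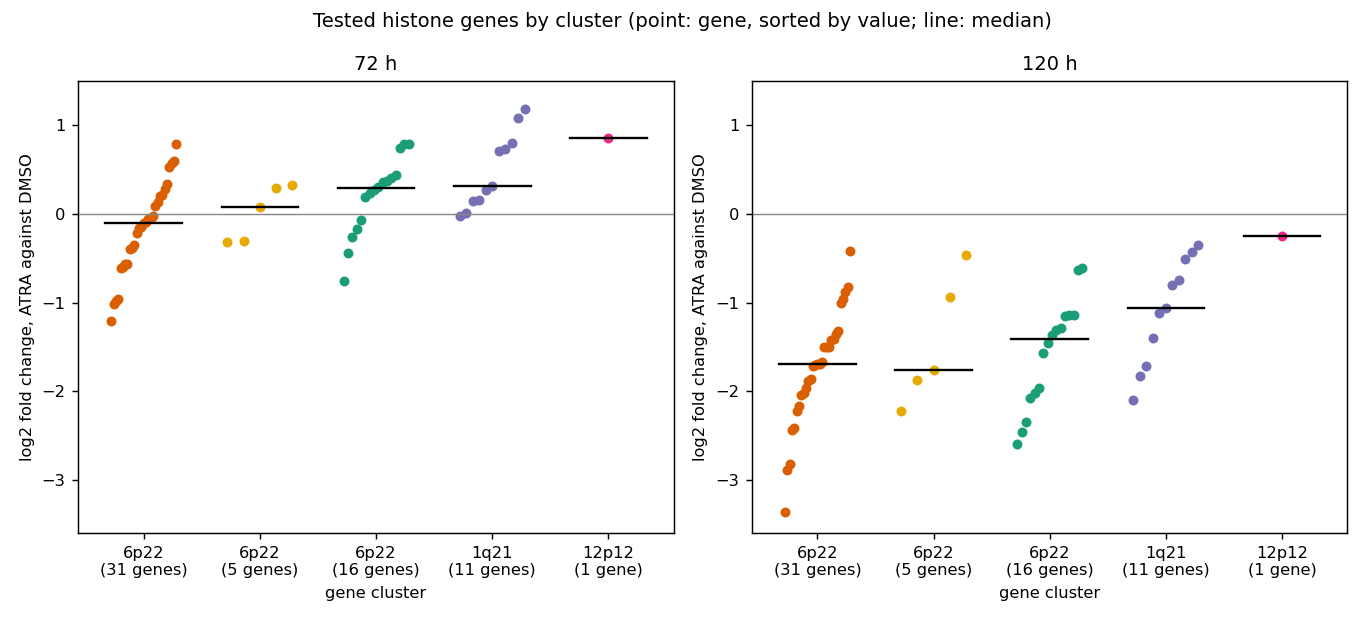
Log2 fold change of ATRA against DMSO (y axis) of the 62 tested histone genes by gene cluster (x axis) at 72 h (left) and 120 h (right); a point is a gene, sorted by value, and a line the median. At 72 h the points lie on both sides of 0, with the 1q21 median at 0.31, and at 120 h every point lies below 0. With library totals as the scaling, 15 genes are higher and 22 lower at 72 h (share of all genes not given).

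Before 72 h few histone genes passed the test. At 4 h, 7 of 62 were lower in ATRA cells and none was higher (21 were lower and none higher at an unadjusted p under 0.05, and 3 lower by DESeq2), where 24.7% of all genes were called and 12.4% were called lower. These 7 calls rest on the DMSO library of replicate 5, and none remained without it. H2BC21 was one of them, with 652.2, 608.6 and 684.6 CPM in ATRA cells, against 643.4, 675.3 and 1106 CPM in DMSO cells. Its log2 fold change was -0.32 ± 0.12 with that library and -0.02 ± 0.09 without it. H3C14, which fell most at 4 h, was at -0.74 ± 0.23 with it and -0.04 ± 0.16 without. At 12 h 1 gene was called, lower, where 38.7% of all genes were called and 18.7% lower (5 lower and none higher at an unadjusted p under 0.05, 2 lower by DESeq2). At 24 h 1 gene was called, again lower, where 33.2% of all genes were called and 15.8% lower (4 higher and 1 lower at an unadjusted p under 0.05).

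That 1 gene was H4C16 at both times, counted over a model far longer than the gene. At 12 h it had 10.9, 12.4 and 12.9 CPM in ATRA cells, against 15.0, 16.2 and 16.2 CPM in DMSO cells (-0.38 ± 0.11). At 24 h it had 11.8, 11.3 and 9.34 CPM in ATRA cells, against 13, 12.9 and 14.8 CPM in DMSO cells (-0.33 ± 0.11). Its groups did not overlap at either time. Over the 62 genes the median at 24 h was 0.14, beside 0.02 over all genes, and ATRA and DMSO libraries did not overlap in 42 of the 62, a larger share than the 47% of all genes. The count of calls at 24 h hangs on the fit. Fitted on those 6 libraries alone, 31 histone genes were called higher and 1 lower. The share of all genes in that fit is not given here, so this count cannot be read as particular to histone genes. DESeq2 called 1, lower, and leaving out a replicate gave 0 to 9, with the 9 without replicate 5. H1-5 had 1122, 1160 and 1105 CPM in ATRA cells at 24 h, against 872, 987 and 997 CPM in DMSO cells.

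**Figure D4:**
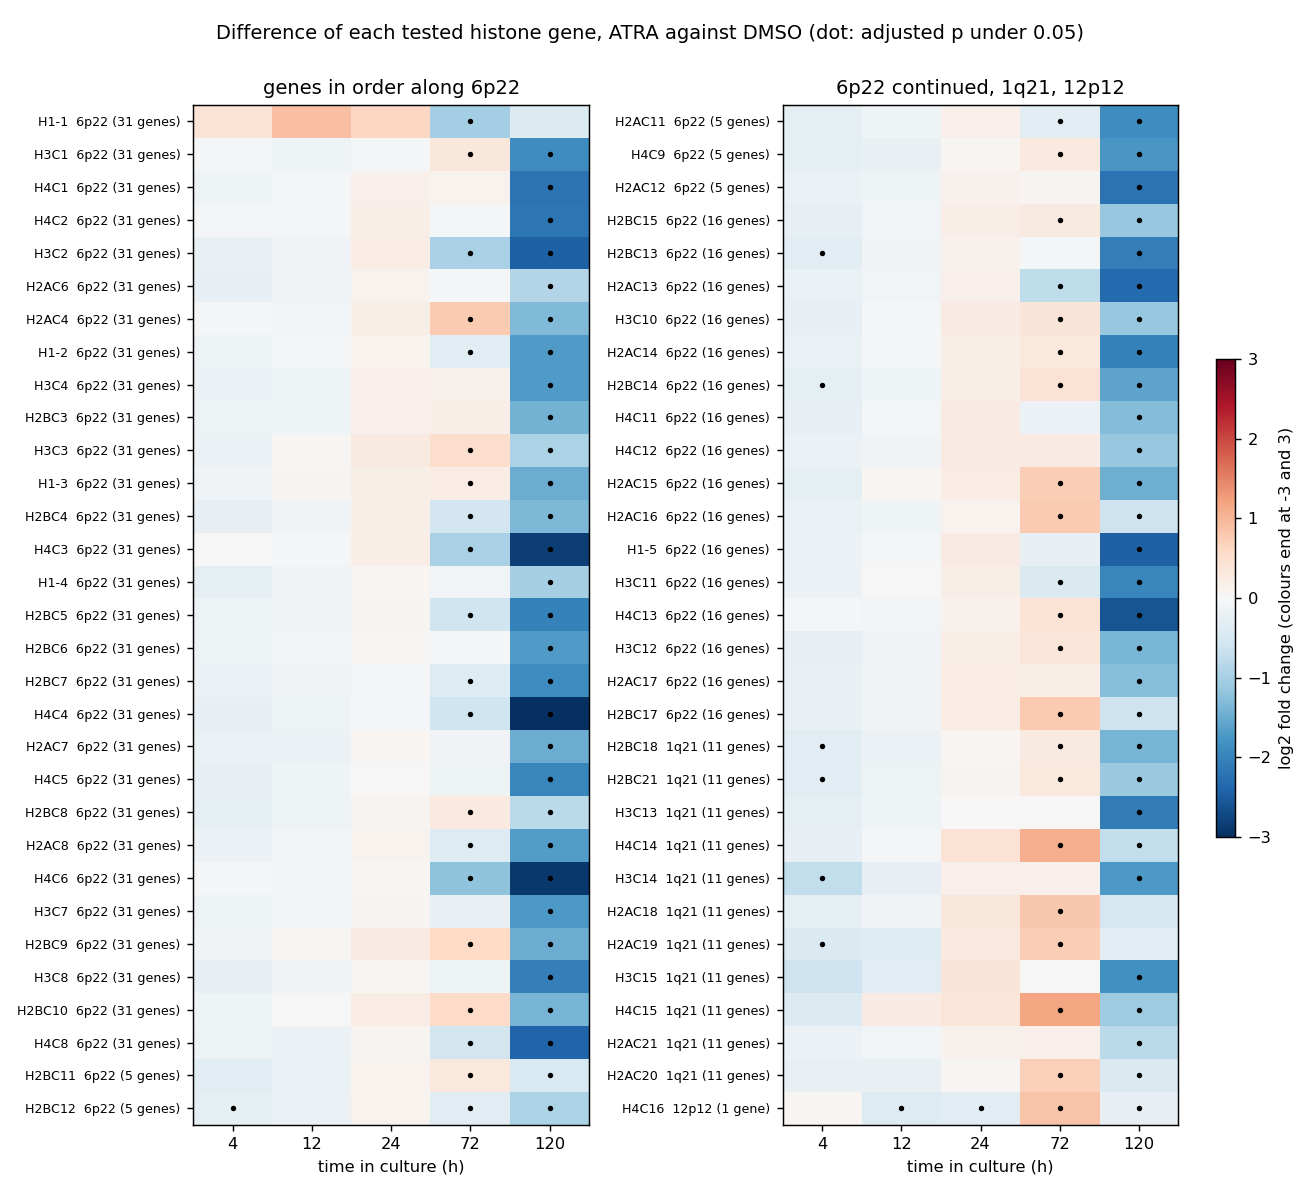
Log2 fold change of ATRA against DMSO for each tested histone gene (rows, ordered along the chromosome within a cluster) at each time in hours (columns), with blue for lower and red for higher in ATRA cells and a dot for an adjusted p under 0.05. The columns of 4, 12 and 24 h are pale with 7, 1 and 1 dots, the 72 h column holds both colours, and the 120 h column is blue throughout with 59 dots.

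The change of the ATRA effect between neighbouring times was tested in the same fit. From 4 to 12 h no histone gene was called (2 at an unadjusted p under 0.05, 1 by DESeq2), where 14% of all genes were. From 12 to 24 h none was called either (4 at an unadjusted p under 0.05, none by DESeq2), where 6.9% of all genes were, and these times also differ in lane. From 24 to 72 h the effect became higher in 6 and lower in 16, where 45.9% of all genes were called, 21.5% higher and 24.5% lower. From 72 to 120 h it became lower in 61 of 62 and higher in none, where 39.3% of all genes were called and 21.8% lower (61 lower by DESeq2 too). Among the gene of highest counts in each class, this last change was -2.20 for H1-5, -1.81 for H4C5, -1.55 for H2AC11, -1.48 for H3C2 and -1.43 for H2BC21.

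In DMSO cells the histone genes went through a low point at 72 h and were near the untreated level at 120 h. Against untreated cells, DMSO cells at 72 h were lower in 59 and higher in 1 of 62, where 51.6% of all genes were called and 24.7% lower, with a median log2 fold change of -0.89 beside 0.07 over all genes. At 120 h they were lower in 6 and higher in 1, where 21.9% of all genes were called and 9.58% lower, with a median of -0.15. H4C13 had the largest fall at 72 h, with 30.1, 36.2 and 29.2 CPM in DMSO cells, against 149.1, 150.4 and 140.5 CPM in untreated cells (-2.20 ± 0.10). It was at 148.0, 153.1 and 131.0 CPM in DMSO cells at 120 h, a range that takes in all 3 untreated libraries. H2BC6 fell most at 120 h (-0.38 ± 0.13). H1-1 was the 1 gene that rose at 72 h, at 1.09, 1.34 and 1.42 CPM in DMSO cells, against 0.523, 0.212 and 0.475 CPM in untreated cells. These are 93 and 31 counts in all, over a model far longer than the gene.

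At the earlier times DMSO cells were lower than untreated cells in 21 genes at 4 h (31.4% of all genes called, 15.7% lower). They were lower in 2 and higher in 6 at 12 h (22.7% called, 11.5% lower and 11.2% higher), and lower in 3 at 24 h (19.1% called, 9.24% lower). Without replicate 5 the 4 h count was 56, given here without the share of all genes in that fit. H1-3 fell most at 4 h (-0.76 ± 0.09) and H1-4 at 12 h (-0.46 ± 0.12) and 24 h (-0.41 ± 0.12), and H4C16 rose most at 12 h (0.48 ± 0.11) and 120 h (0.38 ± 0.11). From 24 h on, DMSO and untreated cells were in different lanes, so lane and time cannot be told apart in these comparisons.

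Comparisons within an arm, added after these values were seen, stay within lanes. In ATRA cells, 53 genes were lower and 1 higher at 72 h than at 24 h (62% of all genes called, 30.7% lower), and 59 were lower and none higher at 120 h than at 72 h (50.4% called and 25.4% lower, and 60 histone genes lower at an unadjusted p under 0.05 and 57 by DESeq2). In DMSO cells, 52 were lower and 1 higher at 72 h than at 24 h (51.7% called, 25.5% lower), and 50 were higher and 1 lower at 120 h than at 72 h (40.8% called, 22.1% higher). Each pair of comparisons shares its 72 h libraries. H1-5 was at 1129 ± 28 CPM at 24 h, 389 ± 20 CPM at 72 h and 171 ± 27 CPM at 120 h in ATRA cells, and at 952 ± 69, 465 ± 41 and 942 ± 34 CPM at these times in DMSO cells (SD, n = 3 each). H4C16 was the 1 gene higher at 72 h than at 24 h in ATRA cells (0.40 ± 0.11), and H1-1 the 1 gene in DMSO cells. The labels do not say whether the 72 h cells were collected before or after fresh medium was added on day 3.

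Genes of DNA replication were lower beside the histone genes at 120 h, while at 12 and 72 h the S phase list was lower and the histone genes mostly were not. Of 20 S phase genes, 20 were lower in ATRA than in DMSO cells at 120 h (35.6% of all genes), with a median log2 fold change of -1.80, led by MCM6 (-2.62 ± 0.08) and MCM4 (-2.38 ± 0.08), subunits of the replicative helicase, and GINS2 (-2.77 ± 0.09), which works with it. At 72 h 15 were lower and 1 higher (32.6% and 32.1% of all genes), with a median of -0.64, beside 0.14 over the histone genes. At 12 h 13 were lower and none higher (18.7% of all genes lower), with a median of -0.24, when 1 histone gene was called. In DMSO cells against untreated cells 19 of 20 were lower at 72 h (24.7% of all genes), and CDT1 was higher (0.46 ± 0.11). At 120 h 2 of the S phase genes were lower and 1 higher, where 21.9% of all genes were called and 9.58% lower. Their part in the histone levels was not tested.

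The factors that make and handle histone messages were more often called lower than higher. Of 14, 10 were lower and 2 higher in ATRA than in DMSO cells at 120 h, where 35.6% of all genes were lower and 34.9% higher. At 72 h 9 were lower and 3 higher, where 32.6% of all genes were lower and 32.1% higher. SLBP had 84.7, 80.2 and 67.6 CPM in ATRA cells at 120 h, against 154.5, 158.9 and 150.5 CPM in DMSO cells (-0.997 ± 0.07, adjusted p = 2.4e-15). The groups were well apart. SLBP also fell at 12 h (-0.43), when 1 histone gene was called, and at 72 h (-0.45). LSM11, a protein of the U7 particle that guides the cleavage (-1.71 ± 0.10), and MIF4GD, an SLBP partner (-1.77 ± 0.12), fell most at 120 h. NPAT differed little, at 0.18 at 72 h and -0.24 ± 0.08 at 120 h, both called. TUT7, a uridylyltransferase with a role in RNA decay, was higher at 120 h (0.96 ± 0.07).

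Histone chaperones, which carry new histones to DNA, were lower in 14 and higher in 3 of 17 at 120 h (35.6% and 34.9% of all genes), with a median log2 fold change of -1.03. IPO4, an importin that carries H3 and H4 into the nucleus (-2.41 ± 0.08), CHAF1B of the replication-coupled assembly factor CAF-1 (-1.97 ± 0.08) and SSRP1 of the FACT complex (-1.92 ± 0.07) had the smallest p-values. The 3 that were higher were ASF1A (0.67), UBN1 (0.47) and HIRA (0.25). HIRA and UBN1 belong to the complex that deposits H3.3 outside replication. CABIN1, DAXX and ATRX, which also have a part in H3.3 deposition, were among the 14 called lower.

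The replication-independent variants, most of which are made throughout the cell cycle from polyadenylated messages, were called in both directions. That description does not fully hold for H2AX and CENPA, which are in the list. Of 8 tested of 10, 4 were higher and 4 lower in ATRA than in DMSO cells at 120 h (34.9% and 35.6% of all genes), with a median of -0.03, and 4 were higher and 3 lower at 72 h (32.1% and 32.6%). H2AZ2 and H2AZ1, which encode the H2A variant H2A.Z, fell by 1.37 ± 0.07 and 0.93 ± 0.08 on the log2 scale at 120 h, and H2AX and CENPA, the centromeric H3 variant, by 1.09 ± 0.14 and 0.19 ± 0.07. The 4 that were higher were H1-10, a linker histone variant (1.15 ± 0.11), H3-3B (0.23 ± 0.06) and H3-3A (0.18 ± 0.06), which encode H3.3, and MACROH2A1 (0.13 ± 0.05), whose libraries overlapped between the groups.

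**Figure D5:**
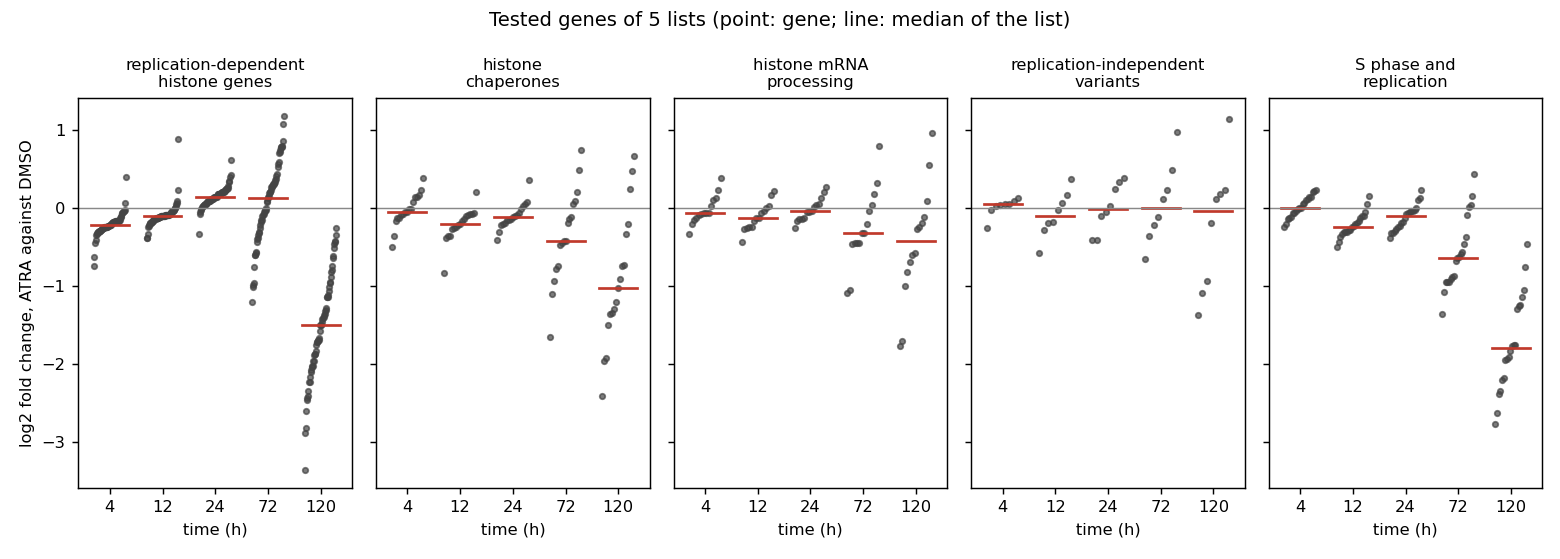
Log2 fold change of ATRA against DMSO (y axis) by time in hours (x axis) for the 62 replication-dependent histone genes, 17 chaperones, 14 message processing factors, 8 variants and 20 S phase genes; a point is a gene and a line the median of its list. At 120 h the medians are -1.50, -1.03, -0.42, -0.03 and -1.80 in that order, and the variants lie between -1.37 and 1.15.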

How the data were processed

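Stranded total RNA of NB4 cells was sequenced as paired 150 bp reads, per the labels' protocols, and 2 technical runs of each replicate were joined. The deposited values are raw counts of fragments per gene, made by the authors with featureCounts of Subread 1.5.1 on GRCh38, strand-specific, with fragments assigned to every overlapping gene and multi-mapping reads not counted, per the file headers. The submitters' processing notes name Trimmomatic 0.36 and STAR 2.5.2b. The annotation merged Ensembl and FANTOM CAT models.

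Tests on the counts used R 4.3.3 with edgeR 4.0.16 (filterByExpr, TMM factors of 0.827 to 1.11, quasi-likelihood fit with a mean per group over all 33 libraries). The Benjamini-Hochberg method adjusted the p-values of each comparison, with a threshold of 0.05. CPM used TMM-scaled totals, and log CPM a prior count of 2. The scripts were tested on simulated counts. Alternatives were other scalings, no filter, a replicate block, lane as a term, groups fitted alone, DESeq2 1.42.0, another DMSO control at 72 h, genes without shared exons, and each replicate left out. Stem-loops were read from GENCODE 29 transcripts and promoters from RefSeq. Proteins and genome sequence were not used here.

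The genes, the lists and the tests were chosen with earlier results of these data known. Genes were named by a rule: the tested H1 genes, the 3 of highest mean CPM in each other class, the largest called rise and fall of each ATRA and DMSO comparison, the known polyadenylated sources, and, from other lists, up to 3 of smallest p with SLBP and NPAT. One listed variant and 1 marker are not reported here and were left out of their lists' counts, sums, median and plot. ASF1A, UBN1, HIRA, CABIN1, DAXX, ATRX, CDT1, TUT7, CD79A and the other called variants were added after their values were seen. Symbols matched 64 genes by identifier and 4 by an older name.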

Additional observations from a re-analysis of the deposited data

Results flagged for a closer look

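The ATRA effect differed between times, by the test of the difference itself (edgeR's quasi-likelihood test, Benjamini-Hochberg adjustment), for the gene of highest counts in several classes. From 24 to 72 h it changed by -1.18 on the log2 scale in H3C2 (adjusted p = 1.2e-06), by -0.50 in H1-5 (adjusted p = 0.011) and by -0.48 in H2AC11 (adjusted p = 0.017). From 72 to 120 h it changed by -2.20 in H1-5 (adjusted p = 5.9e-14), by -1.81 in H4C5 (adjusted p = 2.1e-13), by -1.55 in H2AC11 (adjusted p = 1e-09), by -1.48 in H3C2 (adjusted p = 2.1e-08) and by -1.43 in H2BC21 (adjusted p = 3.1e-09). The DMSO libraries of 72 h, which enter both changes, were low in these genes.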

How the results depend on the processing

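The fall at 120 h kept its direction and size under each scaling, filter and model tried, with 58 to 61 histone genes lower when a replicate was left out, and the change from 72 to 120 h stayed at 61. Among named genes, 3461 values kept direction and side of the threshold, 226 lost significance, 4 gained it and 18 reversed. The 72 h count ran from 29 to 43 without 1 replicate. Of the 18 reversals, 8 were at 72 h with the mean of DMSO cells at 24 h and 120 h as control: H1-1 0.34, H1-3 -0.35, H2BC21 -0.50, H2BC15 -0.49, H2BC18 -0.72, H3C12 -0.66, H4C15 -0.019 and H4C13 -1.81. The other 10 were uncalled changes from 4 to 12 h without DMSO replicate 5 at 4 h or without replicate 5, which ranged over -0.15 to 0.26 in H1-5, -0.14 to 0.30 in H2AC11, -0.15 to 0.29 in H2BC21, -0.19 to 0.29 in H3C2 and -0.12 to 0.23 in H4C5 when 1 replicate was left out. The cause was not tested.

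Small counts moved most. The counts under other settings, here and above, are given without the share of all genes called under the same setting. At 4 h, where 7 genes were called, library totals gave 2, TMM factors without mitochondrial, small RNA and histone genes 14, no filter 29, the groups alone 0 and DESeq2 3, and leaving out a replicate 0 to 36. At 12 h, where 1 was called, size factors gave 3, the second set of TMM factors 3, no filter 8, the groups alone 8 and DESeq2 2, with 1 to 3 without a replicate. At 24 h no filter gave 14 and the groups alone 32, with 0 to 9 without a replicate. The change from 4 to 12 h had 1 call with size factors, library totals, the second TMM factors, no filter and DESeq2, with 0 to 1 without a replicate. From 12 to 24 h it had 2 with no filter and 15 with the groups alone, with 0 to 1 without a replicate. From 24 to 72 h the groups alone gave 37, and 17 to 24 remained called without a replicate.

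In DMSO against untreated cells, the 4 h count was 11 with library totals, 8 with the groups alone and 6 to 56 without a replicate. The 12 h count was 18 with the groups alone and 1 to 12 without a replicate. The 24 h count was 5 with library totals, 8 with no filter, 20 with the groups alone and 0 to 6 without a replicate. The 72 h count was 56 to 61 without a replicate. The 120 h count was 11 with size factors, 12 with the second TMM factors, 16 with no filter, 29 with the groups alone and 2 to 7 without a replicate. In the arm comparisons, leaving out a replicate gave 50 to 55 (ATRA, 72 against 24 h), 55 to 60 (ATRA, 120 against 72 h), 48 to 56 (DMSO, 72 against 24 h) and 46 to 59 (DMSO, 120 against 72 h).

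Counting only the 11 tested genes that share no exon sequence with any gene, which counts fewer genes, gave 0, 0, 0, 6 and 11 calls at 4, 12, 24, 72 and 120 h, 5 and 11 for the changes to 72 h and 120 h, 4, 1, 1, 11 and 1 for DMSO against untreated cells, 11 and 11 for the ATRA arm and 8 and 8 for the DMSO arm. Counting the 37 that share none with another of the genes, chosen after the data were seen, gave 2, 24 and 35 at 4, 72 and 120 h, 36 for the change to 120 h, 4, 37 and 3 for DMSO at 12, 72 and 120 h against untreated cells, 31 and 34 for the ATRA arm and 31 and 31 for the DMSO arm. Their summed level at 120 h had a log2 ratio of -1.77. The summed log2 ratio over all genes ranged over -1.59 to -1.37 at 120 h, -0.09 to 0.06 at 72 h, 0.11 to 0.15 at 24 h, -0.16 to -0.06 at 12 h and -0.35 to 0.04 at 4 h without 1 library.

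The replicate numbers were not taken to pair the libraries, since the deviations of libraries with 1 number correlated at over 0.1 in all 3 pairs at no time (highest 0.20 at 120 h). With the replicate block, the counts were 8, 1, 2, 42 and 59 at the 5 times and 1 for the change from 4 to 12 h. The number of replicates limits what the smaller differences at 4, 12 and 24 h can show.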
